A study of Homo sapiens with 4 samples.

Results

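NQO1 and 4 glutathione transferase genes (GSTP1, GSTM4, GSTO1 and MGST3) were followed on arrays that compared melanoma cells exposed to electric pulses with unexposed cells. Every oligonucleotide annotated to these symbols was taken, which gave 5 of the 3048 oligonucleotides on the array, 1 for each gene, and 5 of the 1892 genes named there. Of the 1989 oligonucleotides with an annotated symbol these are all that name the 5 genes. The genes were chosen by their log2 ratios of exposed over untreated cells on all 4 arrays, so these ratios are described here and not tested.

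The cells were SK-MEL28, a long-established line from a human melanoma. Trypsinized cells in suspension were exposed to ECT pulses, as used in electrochemotherapy (8 of 100 μs at a field of 1300 V/cm), or to EGT pulses, as used in electrogene therapy (8 of 5 ms at a field of 600 V/cm), and RNA was isolated 16 h later. Each pulse type had 2 arrays, and on all 4 arrays the exposed RNA carried Cy5 and the RNA of untreated SK-MEL28 cells carried Cy3. The source labels of ECT array 2, EGT array 1 and EGT array 2 also name cisplatin, which the protocol labels and the methods do not. Dyes were never swapped, so the response to the pulses and any preference of an oligonucleotide for 1 dye cannot be told apart. Whether array 1 and array 2 came from separate cultures is not stated, so the spread between them may be technical.

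NQO1 is a flavoprotein of the cytosol that reduces quinones to hydroquinones and so keeps them from cycling through reactive semiquinones. Glutathione transferases couple glutathione to electrophilic compounds, which are then exported from the cell. Several genes of both kinds are induced through antioxidant response elements, short DNA sites bound by the transcription factor NRF2 after it escapes its inhibitor KEAP1. GSTP1 is the cytosolic transferase of the pi class and is abundant in many tumours, GSTM4 is a cytosolic transferase of the mu class, and GSTO1 is of the omega class, which reduces dehydroascorbate and arsenic compounds. MGST3 is a membrane enzyme of the MAPEG family with glutathione transferase and peroxidase activity.

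NQO1 is annotated at chr16:69709401-69726560, GSTP1 at chr11:67583812-67586653, GSTM4 at chr1:109656099-109667727, GSTO1 at chr10:104254173-104267455 and MGST3 at chr1:165631234-165656136, all in RefSeq on GRCh38.p14. The sequences of the spotted oligonucleotides were not used here, so their exons are not given. GSTM4 lies in a cluster of closely related mu class genes, and a share of its signal may come from them. The sequences before the annotated start of NQO1, GSTP1 and GSTO1 are shown because their values lie at the extremes of the group or because they hold the core of an antioxidant response element, searched as TGACNNNGC on both strands of the 250 bases before each start. In NQO1 the capitals mark its matches to the GC box (GGGCGG, here read on the opposite strand), and in the other sequences they mark TGACNNNGC. All are from RefSeq on GRCh38.p14 and read along the strand of the gene.
NQO1, chr16:69726561-69726810, minus strand: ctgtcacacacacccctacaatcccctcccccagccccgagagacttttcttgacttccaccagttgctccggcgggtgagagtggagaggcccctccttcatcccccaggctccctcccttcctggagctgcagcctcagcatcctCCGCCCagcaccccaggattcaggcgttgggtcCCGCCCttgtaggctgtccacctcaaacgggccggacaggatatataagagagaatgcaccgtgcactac
GSTP1, chr11:67583562-67583811, plus strand: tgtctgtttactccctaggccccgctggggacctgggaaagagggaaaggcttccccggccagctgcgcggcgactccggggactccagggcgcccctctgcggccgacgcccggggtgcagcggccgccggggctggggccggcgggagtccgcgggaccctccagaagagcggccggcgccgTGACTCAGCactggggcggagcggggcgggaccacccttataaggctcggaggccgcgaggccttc
GSTO1, chr10:104254656-104254685, plus strand: ggcggagggaTGACTGAGCatttataactt
GSTO1, chr10:104254721-104254750, plus strand: cgagatgcttTGACACAGCcccttaagatg

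The GSTP1 match begins 66 bases before the start and contains the AP-1 site TGACTCA. The GSTO1 matches begin 226 and 161 bases before the start at position 104254892, a window that lies inside the gene's annotated span because another transcript begins further upstream. Of the 5 genes, GSTP1 and GSTO1 hold TGACNNNGC in this window, against 10.9% of the 35116 promoters of the same length. TGACTCA was found in GSTP1 alone of the 5, against 4.2% of all promoters. GGGCGG was found in all 5, against 42.6%, and GCGTG, the core of the xenobiotic response element, in GSTM4 and MGST3, against 32.2%. These matches describe letters in a short window, and the element known to drive NQO1 lies further upstream than the bases searched.

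Spot intensities on these arrays are brightness values on a linear scale, and a spot was kept when both channels reached 2 times the local background. On all 4 arrays 1164 oligonucleotides were measured, with 1208 to 1537 on single arrays. The log2 ratios of ECT array 1 and EGT array 2 correlated at 0.75 over these 1164 oligonucleotides, and every other pair of arrays at 0.41 to 0.49, including the 2 arrays of each pulse type. On EGT array 1, 4 spots of very high local background were left out before the background fit, none of them a spot of the 5 genes. Of 9 oligonucleotides for melanocyte genes, 8 were measured on all 4 arrays, and KIT on none. The median log2 ratio of these 8 was -0.12 after ECT and 0.07 after EGT pulses. Of the 8, the pigment enzyme gene TYRP1 was above 0 on every array (0.12 to 0.75), as was MITF (0.08 to 0.40), and CD63 (-1.10 to -0.37) and S100B (-1.14 to -0.33) were below 0 on every array. The ratios of TYR, MLANA, SOX10 and EDNRB ran from -0.24 to 0.34. Of 5 for leukocyte genes, which a melanoma line should lack, 4 were also measured on all 4 arrays, and their Cy3 signal was 5.88 to 145 times background, so a kept spot does not by itself show that a gene was transcribed. After the pulses these 4 had a median log2 ratio of -0.17 (ECT) and -0.29 (EGT), and CD28 had an adjusted p of 0.0251 from limma for the mean of both. Of the oligonucleotides for epithelial genes 5 of 5 and for fibroblast and endothelial genes 2 of 4 were measured on all 4 arrays, with medians of -0.08 and 0.09 after ECT and -0.13 and -0.01 after EGT pulses. In Cy3 the epithelial ones were 78.1 (KRT5) to 1802 (KRT19) times background, and CDH1 was 315 to 595 times. COL3A1 was 65.9 to 146 times and VWF 8.01 to 14.8 times. The 8 melanocyte ones were 9.20 (EDNRB) to 494 (CD63) times background. The part of other cells' genes in the values below was not tested.

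All 96 spots of the 5 oligonucleotides, 24 on each array, were kept. In Cy3, which held the untreated cells, the NQO1 spots were 26.8 to 45.1 times the local background on the 4 arrays and the GSTP1 spots 25.2 to 54.9 times. GSTM4 spots were 574 to 987 times background in Cy3, GSTO1 spots 14.7 to 29.8 times and MGST3 spots 7.71 to 17.3 times. In Cy5, which held the exposed cells, the range was 6.81 to 16.6 for NQO1, 7.42 to 13.1 for GSTP1, 244 to 306 for GSTM4, 3.11 to 6.70 for GSTO1 and 2.68 to 4.53 for MGST3. The MGST3 spots in Cy5 were thus the ones nearest to the limit of 2 times background, whereas the GSTM4 spots were far above it in both dyes.

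**Figure D1:**
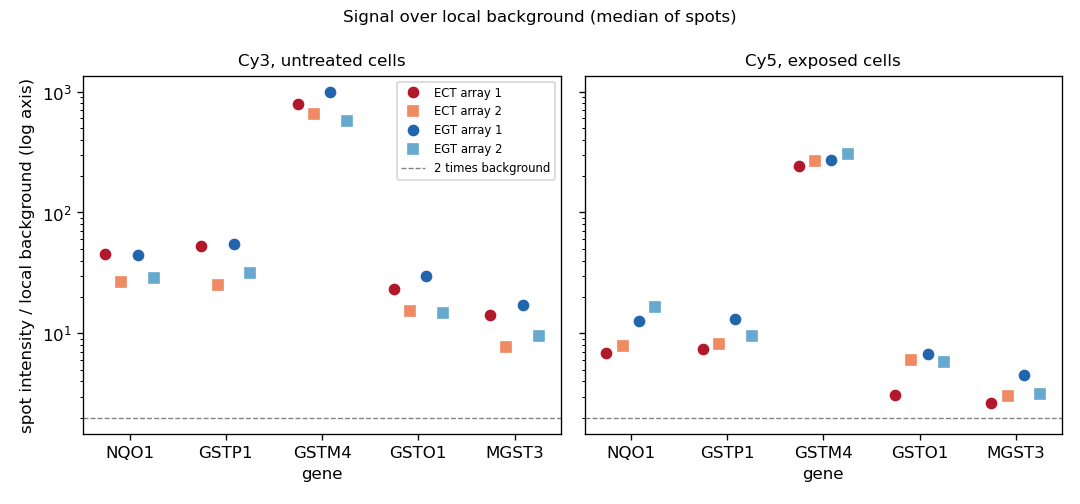
Spot intensity over local background (log axis, median of the spots of an oligonucleotide) for the 5 genes on each of the 4 arrays, in Cy3 (untreated cells, left) and Cy5 (exposed cells, right), with a dashed line at 2 times background. GSTM4 lies between 574 and 987 in Cy3, and MGST3 in Cy5 lies between 2.68 and 4.53.

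The ratios of NQO1 were low after ECT pulses and near 0 after EGT pulses. On ECT array 1 its 4 spots had a median intensity of 692 in Cy3 (618 to 840) and 106 in Cy5 (91 to 145), and on ECT array 2 of 375 (358 to 470) and 137 (126 to 176). On EGT array 1 the medians were 518 in Cy3 (451 to 606) and 209 in Cy5 (172 to 244), and on EGT array 2 399 (361 to 423) and 250 (213 to 288). Cy5 was weaker than Cy3 over each whole array, and the median log2 of Cy5 over Cy3 among kept spots was -1.51 and -0.72 for the ECT pair and -1.05 and -0.33 for the EGT pair. After loess normalization removed that trend, the log2 ratio (treated/untreated) of NQO1 was -0.90 and -0.60 after ECT pulses and -0.03 and -0.22 after EGT pulses. Both ECT arrays thus lay below both EGT arrays, an order that 14.4% of the 1164 oligonucleotides showed. The opposite order was shown by 13.3%, and the other 4 genes showed neither.

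After ECT pulses the mean log2 ratio of NQO1 was -0.75 ± 0.21 (SD, n = 2), or 1.68-fold lower than in untreated cells. After EGT pulses it was -0.12 ± 0.14, or 1.09-fold lower. The ECT mean was 0.63 lower than the EGT mean on the log2 scale (-0.63, standard error 0.17 from limma). NQO1 was chosen with these ratios known, so the standard error does not serve as a test. Over all 1164 oligonucleotides the smallest adjusted p from limma for this difference was 0.988. The SD between arrays averaged 0.17 over all oligonucleotides for ECT pulses and 0.14 for EGT pulses, so the spread of NQO1 was near the usual one. Since the arrays measure RNA of all cells together, a lower level in every cell and a loss of the transcript in some cells cannot be told apart. The authors reported lower survival in a colony assay after EGT than after ECT pulses, and its part in these ratios was not tested. On ECT array 1, 2.03% of the 1478 measured oligonucleotides had a lower ratio than NQO1, and on ECT array 2, 1.24% of 1208. On EGT array 1 the share was 46.6%, which placed NQO1 in the middle of that array, and on EGT array 2 it was 17.8%.

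The array values of NQO1 are medians of its spots, so the spots show the range on each array and are not separate replicates. On the ECT arrays all 8 spots were below 0, from -1.38 to -0.49 on array 1 and from -0.84 to -0.18 on array 2. On the EGT arrays 2 of 4 spots were below 0 on each, with a range of -0.57 to 0.06 on array 1 and of -0.51 to 0.02 on array 2. The spots of the ECT and the EGT arrays thus overlapped in part, whereas the array medians did not.

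NQO1 was the only one of the 5 genes at least 1.5-fold lower on both ECT arrays, which 0.595% of the 1176 oligonucleotides measured on both were. At -0.60, its less changed array lay just past the threshold of -0.58. CASP9, which encodes the initiator caspase of the mitochondrial death pathway, lay beside it inside the threshold with -0.60, and the histone gene H4C16 and the E2F partner TFDP1 lay just outside with -0.55 and -0.52. None of the 5 genes was at least 1.5-fold lower on both EGT arrays, where 0.452% of 1327 oligonucleotides were.

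**Figure D2:**
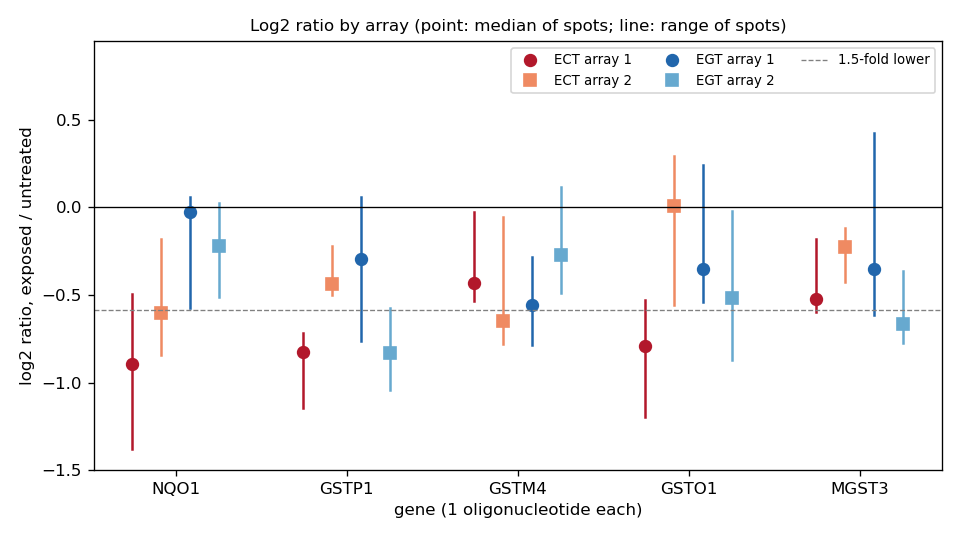
Log2 ratio of exposed over untreated cells for the 5 genes on each array. Points are the median of the spots of the oligonucleotide (8 for GSTO1, 4 for the others), lines run from the lowest to the highest spot, and the dashed line marks 1.5-fold lower. NQO1 is at -0.90 and -0.60 after ECT pulses and at -0.03 and -0.22 after EGT pulses, and GSTO1 on ECT array 2, at 0.01, is the only median above 0.

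GSTP1 was low after both pulse types. Its log2 ratio was -0.83 and -0.44 after ECT pulses and -0.30 and -0.83 after EGT pulses, so the pulse types overlapped. The lowest ratios were on ECT array 1 and EGT array 2, the pair of arrays with the highest correlation over all oligonucleotides, and on both of these GSTP1 was at least 1.5-fold lower. The mean was -0.63 ± 0.27 (SD, n = 2) after ECT pulses and -0.56 ± 0.38 after EGT pulses, or 1.55-fold and 1.48-fold lower. The ECT mean minus the EGT mean was -0.07 (standard error 0.23 from limma), within the spread between arrays. Of its 16 spots, 15 were below 0, and the exception was on EGT array 1. On ECT array 1 the median intensity of untreated cells was 729 and that of exposed cells 127, and on EGT array 2 they were 416 and 153.

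GSTM4, whose spots were far above background, had the least spread of the 5 genes over the 4 arrays. Its log2 ratio was -0.43 and -0.65 after ECT pulses and -0.56 and -0.27 after EGT pulses, with an SD over all 4 of 0.17, against 0.39 for NQO1. Its lowest ratio was thus on ECT array 2, where GSTO1 was at 0.01 and only 0.662% of the measured oligonucleotides were lower than GSTM4. The mean was -0.54 ± 0.15 after ECT pulses and -0.41 ± 0.21 after EGT pulses (SD, n = 2), and the pulse types overlapped. The median spot intensity was 15024 for untreated and 4361 for exposed cells on ECT array 1, and 9505 and 5551 on EGT array 2, below the ceiling of 65000. In 15 of 16 spots the ratio was below 0.

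GSTO1, spotted 8 times on each array, differed most between the ECT arrays. Its log2 ratio was -0.79 and 0.01 after ECT pulses (arrays 1 and 2) and -0.35 and -0.52 after EGT pulses. On ECT array 1 all 8 spots were below 0 (-1.20 to -0.53), and on ECT array 2 3 of 8 were (-0.56 to 0.29). After EGT pulses 7 of 8 and 8 of 8 spots were below 0. The mean was -0.39 ± 0.56 after ECT pulses and -0.43 ± 0.12 after EGT pulses (SD, n = 2). The ECT mean therefore rested on array 1 alone, since without that array it was 0.01. The source label of ECT array 2 names cisplatin and that of ECT array 1 does not, and the array and the label cannot be told apart.

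MGST3 had its lowest ratios on ECT array 1 and EGT array 2, as GSTP1 had. Its log2 ratio was -0.52 and -0.23 after ECT pulses and -0.35 and -0.67 after EGT pulses, and the pulse types overlapped. The mean was -0.37 ± 0.21 after ECT pulses and -0.51 ± 0.22 after EGT pulses (SD, n = 2), or 1.30-fold and 1.42-fold lower. It was the gene with the highest mean of the 5 after ECT pulses and the second lowest after EGT pulses. In 15 of 16 spots the ratio was below 0, and the exception, at 0.42 on EGT array 1, gave that array the widest range of its spots.

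Seen by array, the median ratio of the 5 genes was -0.79 and -0.44 for the ECT pair and -0.35 and -0.52 for the EGT pair. Over all arrays 83 of the 96 spots were below 0, 24 and 19 of 24 for the ECT pair and 19 and 21 for the EGT pair. On ECT array 1, 3 of the 5 genes were at least 1.5-fold lower (6.02% of all measured there) and 5 were below 0 (52.4%). These counts were 2 (1.49%) and 4 (53%) for ECT array 2. For EGT array 1 they were 0 (0.933%) and 5 (54.2%), and for EGT array 2 they were 2 (3.32%) and 5 (49.6%). The mean was at least 1.5-fold lower for 2 of 5 genes after ECT pulses (2.47% of all) and for 0 of 5 after EGT pulses (1.73%). By gene, 4 of 5 were below 0 on both ECT arrays, as 34.4% of 1176 oligonucleotides were, and 5 of 5 on both EGT arrays, as 34.9% of 1327 were. Nothing is read from these counts, because the genes were chosen with the ratios known. From the lowest mean to the highest, the order was NQO1, GSTP1, GSTM4, GSTO1 and MGST3 after ECT pulses, and GSTP1, MGST3, GSTO1, GSTM4 and NQO1 after EGT pulses. Neighbours in either order differed by less than the larger of their SDs between arrays, except NQO1 and GSTM4 after EGT pulses, at -0.12 ± 0.14 and -0.41 ± 0.21. The median of the 5 means was -0.54 after ECT pulses and -0.43 after EGT pulses, against -0.02 and -0.01 over all measured oligonucleotides.

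**Figure D3:**
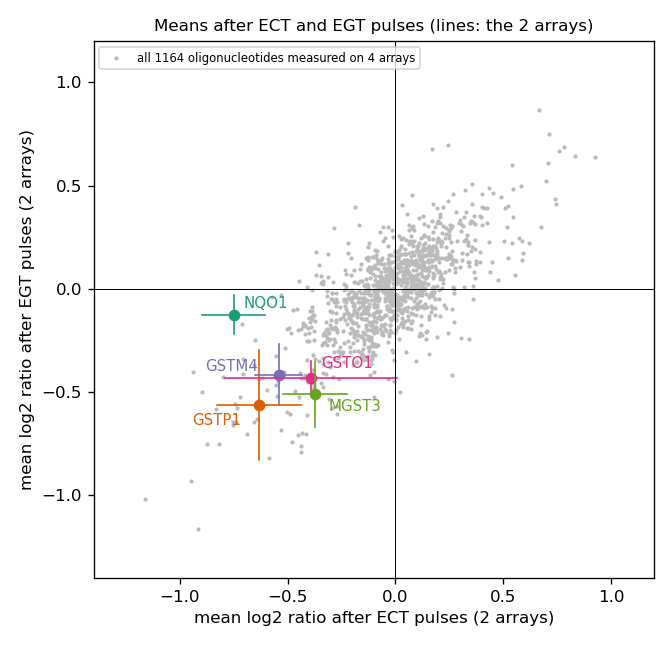
Mean log2 ratio after ECT pulses (x axis) against the mean after EGT pulses (y axis), each of 2 arrays, for the 1164 oligonucleotides measured on all 4 arrays (grey) and the 5 genes (coloured, with lines from the lower to the higher array). The untreated cells served both axes, so the axes are not independent. NQO1, at -0.75 and -0.12, lies apart from the 4 transferases, whose means run from -0.63 to -0.37 after ECT pulses and from -0.56 to -0.41 after EGT pulses.

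GSTP1, GSTO1 and MGST3 varied over the arrays most alike. The root mean square difference of log2 ratios over the 4 arrays was 0.19 between GSTO1 and MGST3, 0.20 between GSTP1 and MGST3, and 0.28 between GSTP1 and GSTO1. NQO1 differed from the transferases by 0.35 to 0.38, and GSTM4 from the other transferases by 0.31 to 0.41. Among the 1163 other oligonucleotides measured on all 4 arrays, those nearest to NQO1 by this measure were of the histone gene H3-3A (0.19), the myosin light chain gene MYL12A (0.20), TFDP1 (0.20), the mitochondrial protein gene C1QBP (0.21) and H4C16 (0.22). TFDP1, for example, was at -0.52 and -0.63 after ECT pulses and at 0.06 and -0.14 after EGT pulses. None of the transferases was among these 5.

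The genes with spots nearer to background depended more on the background correction. Between normexp, plain subtraction and no correction, the ratio of GSTM4 changed by at most 0.02 on any array. That of NQO1 changed by up to 0.24 and that of GSTP1 by up to 0.21. That of GSTO1 changed by up to 0.54 (ECT array 1) and that of MGST3 by up to 0.63 (EGT array 2). With plain subtraction MGST3 was at -0.96 and -0.42 after ECT pulses and at -0.55 and -1.29 after EGT pulses. In the authors' normalized values NQO1 was at -1.10 and -0.67 after ECT pulses and at -0.17 and -0.28 after EGT pulses, and GSTO1 was at -1.11 and -0.05 after ECT pulses. In each of the 11 ways of processing, NQO1 had the lowest ECT mean and the highest EGT mean of the genes that had one.

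**Figure D4:**
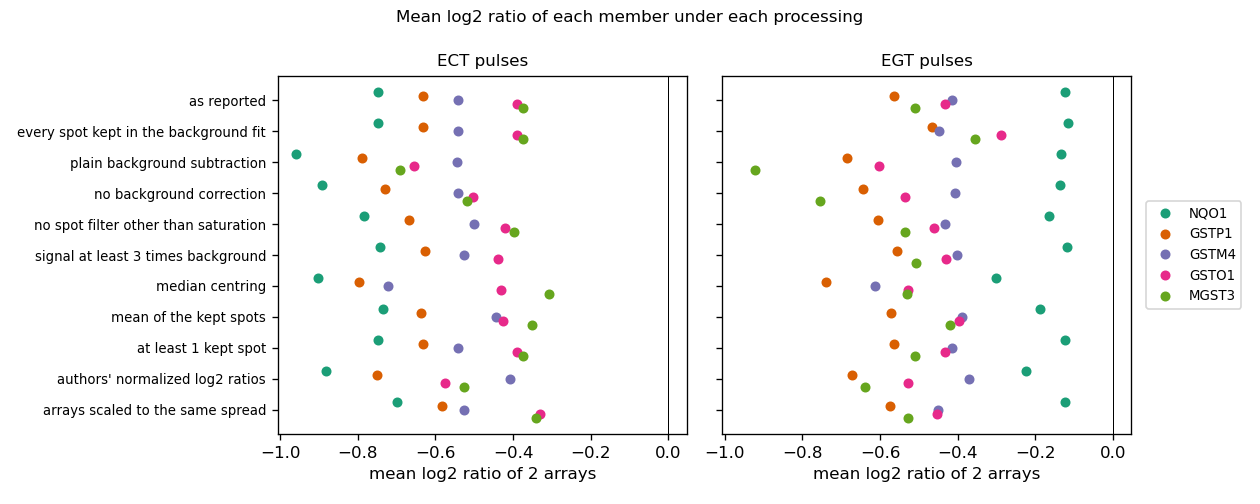
Mean log2 ratio of 2 arrays for each of the 5 genes after ECT pulses (left) and EGT pulses (right), by processing (rows, 11 in all). Points are means, all below 0. The mean of NQO1 runs from -0.96 to -0.70 after ECT pulses and from -0.30 to -0.12 after EGT pulses, and MGST3, not measured on ECT array 1 at 3 times background, has no ECT mean there.

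Other genes of the same pathways were tested with limma over all measured oligonucleotides. Their lists were drawn up with earlier results of these data known and leave out the 5 genes, so they are no independent comparison. The lists held 28 genes on the array with 30 oligonucleotides, of which 17 were measured on all 4 arrays. No oligonucleotide of these lists had an adjusted p under 0.05 from limma after ECT pulses (17 tested), after EGT pulses (21 tested), for the mean of both or for the difference between them (17 tested each). At an unadjusted p under 0.05 the counts from limma were 3, 4, 5 and 0, all lower. TP53I3 entered the EGT count through separate oligonucleotides. Of all oligonucleotides at that level, 114 of 193 were lower for ECT pulses and 123 of 208 for EGT pulses. For the mean of both, 187 of 327 were lower. Over the whole array the share with an adjusted p under 0.05 was 0% for ECT pulses (0 of 1176, with 193 at an unadjusted p under 0.05), 0% for EGT pulses (0 of 1327, with 208), 0.687% for the mean of both (8 of 1164, 0.43% higher and 0.258% lower, with 327) and 0% for the difference (0 of 1164, with 31). The median mean ratio of the 17 was -0.06 after ECT and -0.09 after EGT pulses, against -0.02 and -0.01 over all.

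The other glutathione transferases and MAPEG genes on the array had ratios from -0.25 to 0.34. GSTM3, of the mu class like GSTM4, was at 0.34 and 0.22 after ECT pulses and at -0.07 and 0.34 after EGT pulses, with means of 0.28 ± 0.09 and 0.14 ± 0.29 (SD, n = 2). GSTZ1, of the zeta class, which acts in tyrosine breakdown, had a mean of 0.27 ± 0.02 after ECT pulses and of -0.02 ± 0.30 after EGT pulses. ALOX5AP, a MAPEG protein of leukotriene synthesis, was at 0.19 ± 0.19 and 0.16 ± 0.00. All 3 had a mean above 0 after ECT pulses, and none passed the test. MGST2 and GSTT2 were measured on 3 arrays, at -0.08 to 0.07 and at -0.25 to 0.03.

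Of NRF2 regulators and targets, 3 of 9 on the array were measured on all 4 arrays. TXNRD1, a thioredoxin reductase induced by NRF2, was at 0.39 and -0.01 after ECT pulses and at 0.04 and 0.30 after EGT pulses. KEAP1 was at 0.14 and -0.05 after ECT pulses and at -0.00 and 0.26 after EGT pulses, and NFE2L3, a factor related to NRF2, ran from -0.16 to 0.09. NFE2L2, which encodes NRF2, was measured on 2 arrays (0.04 and 0.28) and HMOX1, the inducible haem oxygenase, on 1 (0.01). ABCC2 (-0.02 to 0.10) and NFE2 (-0.14 to -0.06) were measured on 3 arrays. NFE2L1 (0.29 and 0.04) and SQSTM1 (-0.11 and 0.04) were measured on 2. Genes of these lists not measured on all 4 arrays were named after their values were seen. Of the 3 genes measured on all 4 arrays, 0 passed the test in either direction, with TXNRD1 the only established NRF2 target among them.

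Of the antioxidant enzymes, SOD1, the cytosolic superoxide dismutase, was at -0.69 and 0.09 after ECT pulses and at -0.26 and -0.49 after EGT pulses, an order of arrays like that of GSTO1. SOD3, its secreted relative, was at -0.05, -0.49, -0.23 and -0.17 on the same arrays, and GSS, which makes glutathione, at 0.12, -0.09, -0.19 and 0.01. SOD2 and GPX4 were measured on none. Among genes of drug and xenobiotic metabolism, the lowest by the mean over all 4 arrays were CYP2A7, a cytochrome P450 of the CYP2A cluster (-0.44 ± 0.23 after ECT and -0.79 ± 0.31 after EGT pulses), and TP53I3, a quinone oxidoreductase induced by p53. One oligonucleotide of TP53I3 was at -0.48 ± 0.33 and -0.74 ± 0.24, another at -0.10 ± 0.03 and -0.21 ± 0.01, and a further one was measured on no array. SULT1C2, a sulfotransferase, was at -0.55 ± 0.43 and -0.46 ± 0.02, the lowest of the list after ECT pulses alone. The highest by the mean over all 4 arrays were CYP11A1, which starts steroid synthesis, at -0.13 ± 0.03 and 0.20 ± 0.06, and CYP3A4, a drug-metabolizing P450, at -0.09 ± 0.16 and 0.12 ± 0.03. After ECT pulses alone CYP2E1 (-0.02) and CYP4B1 (-0.06) were higher than both. For CYP2A7 and TP53I3 the adjusted p from limma for the mean of both pulse types was 0.0541, the smallest of these lists, with ratios below 0 on 4 of 4 arrays.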

How the data were processed

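RNA of SK-MEL28 cells was hybridised to 4 spotted oligonucleotide arrays. The authors scanned them and extracted features with Array-Pro Analyzer, and the deposited intensity values are median spot and local background brightness on a linear scale, not normalized. The deposited log2 ratios are the authors' values after spot filtering, LOWESS and the median of replicate spots (2322 oligonucleotides), and served as an alternative. Which scanner channel holds Cy5 was checked against that table, with which the raw log2 ratios correlated at 0.65 to 0.93.

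In R 4.3.3 with limma 3.58.1, spots with a local background over 1000 were left out (4, all on EGT array 1), since they shift the background fit of that array. Background was corrected with normexp (offset 50). Kept spots had both channels at least 2 times background and at most 65000, and a background SD of at most 0.3 of the intensity. Loess within arrays used a span of 0.3 and 4 iterations, and the median of at least 2 kept spots was taken. Group means, their mean and their difference were fitted over all 4 arrays (lmFit, eBayes) with Benjamini-Hochberg adjustment. The steps were also run on simulated data with the same changes on all 4 arrays and noise independent between arrays. Correlation of that noise between arrays was not simulated, so the run does not show how reliable the calls are. Symbols are those of the array's annotation, for 1989 of 3048 oligonucleotides, and the Entrez IDs of all 5 genes matched RefSeq. No depth exists for arrays, and their number limits the precision.

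The 5 genes, the pathway lists, the marker lists and the removal of the 4 spots were chosen with earlier results of these data known. Named beside the 5 genes are the 2 highest and 2 lowest of each pathway list over the 4 arrays, any list member past the test, and the 5 oligonucleotides nearest to NQO1. Also named, outside this rule and with their values known, are CASP9, SULT1C2, CYP2E1, CYP4B1, marker genes and list genes not measured on all 4 arrays. Alternatives changed the background step, the spot filter, the normalization, the spot summary, the arrays and the block.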

Additional observations from a re-analysis of the deposited data

Results flagged for a closer look

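NFE2L3 and CYP11A1 had ratios on opposite sides of 0 after the 2 pulse types on every array. NFE2L3 was at 0.01 and 0.09 after ECT pulses and at -0.05 and -0.16 after EGT pulses, a difference of 0.16 in log2 between the means. CYP11A1 was at -0.10 and -0.15 after ECT pulses and at 0.25 and 0.16 after EGT pulses, a difference of -0.33. Over all 1164 oligonucleotides measured on the 4 arrays, 13.3% had both ECT arrays above both EGT arrays, as NFE2L3 had, and 14.4% had them below, as CYP11A1 had, so these orders were common on the arrays. These shares count the order alone, whatever the side of 0, and the share with opposite sides was not counted. For this difference limma gave an adjusted p of 0.988 for each gene.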

How the results depend on the processing

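Each of the 5 genes kept a mean below 0 for both pulse types under all 10 alternatives of processing, with no ECT mean for MGST3 at 3 times background. Leaving out ECT array 1 turned the ECT mean of GSTO1 to 0.0092, and leaving out ECT array 2 gave -0.79. The ECT mean of NQO1 was -0.96 with plain subtraction, and its EGT mean -0.30 with median centring. Leaving out an array gave -0.90 to -0.60 for its ECT mean and -0.22 to -0.03 for its EGT mean. With the 4 spots of high background kept, the EGT means of GSTO1, MGST3 and GSTP1 were -0.29, -0.35 and -0.47. On EGT array 1 their ratios were then -0.06, -0.04 and -0.10, against -0.35, -0.35 and -0.30 as reported. On the same array GSTM4 was at -0.63, against -0.56, and NQO1 at -0.01, against -0.03. Counts with an adjusted p under 0.05 from limma moved far more. For the mean of both pulse types (8, of which 5 were higher) the count was 0 with every spot in the background fit or no spot filter, 5 with the mean of spots, 55 without background correction, 60 in the authors' values, 69 at 3 times background, 76 with scaled arrays and 401 with median centring (115 higher), and 0 to 79 without 1 array (79 without ECT array 2, 0 without any other). Median centring gave 117 for ECT pulses (22 higher) and 92 for EGT pulses (5 higher), and the authors' values gave 9 for EGT pulses (3 higher). The cause was not tested. Of the pathway lists, 2 oligonucleotides passed without background correction (CYP2A7, TP53I3) and 3 in the authors' values (with SULT1C2), all lower. Whether arrays of the same number form pairs is not stated. The ECT and EGT differences between arrays 1 and 2 correlated at -0.44 over oligonucleotides, which does not settle it. With the replicate block, which leaves 1 degree of freedom, limma gave 70 (ECT), 38 (EGT) and 139 (mean of both). A block with crossed numbers, chosen after seeing the data, gave 0 (ECT), 0 (EGT) and 112 (mean of both).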
